A study of Mus musculus with 30 samples.

Results

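miR-199a is a mouse microRNA (miRNA) whose hairpin precursor gives a mature strand from each arm, miR-199a-5p and miR-199a-3p. Both strands are rows of the deposited table and were taken by their names, 2 of the 566 mouse miRNAs and of the 626 features in all. The 30 samples fall into 8 groups. Mesenteric adipose tissue came from male C57BL6 mice on normal chow (MAT-NCD, 5 samples) or on a diet with 60% fat (MAT-HFD, 5 samples), each diet given from 4 to 20 weeks of age, and abdominal aorta came from mice on the same diets (AA-NCD, 3 samples, and AA-HFD, 3 samples). Cultured adipocytes (MAT-Ad) were differentiated in vitro from pre-adipocytes of the stromal vascular fraction of mesenteric fat of chow-fed male C57BL6 mice, and received PBS (MAT-Ad-PBS, 4 samples) or lipopolysaccharide (LPS), a bacterial cell wall component that sets off inflammatory signalling, at 1 µg/ml for 24 h (MAT-Ad-LPS, 4 samples). Exosomes, small vesicles released by cells, came from the medium of such cultures (MAT-Ad-EX-PBS and MAT-Ad-EX-LPS, 3 samples each). No transgene, deletion or clone is named for any group. The labels number the replicates and do not state if each was its own animal or culture. The p-values here speak of sample-to-sample spread alone, part of which may be technical.

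A miRNA precursor is cut to a short duplex, and either strand can be loaded into an Argonaute protein, which the strand then guides to messenger RNAs that pair with bases 2 to 8 from its 5′ end, the seed. miR-199a is known from mesenchymal cells such as fibroblasts and smooth muscle cells, and one of its genes lies in the long noncoding RNA Dnm3os together with miR-214. The family is known for roles in skeletal development and in fibrosis.

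The sequences are shown because the 2 strands have unrelated seeds and because the 3p row cannot be assigned to 1 gene. They are RefSeq's, on GRCm38.p6, written 5′ to 3′, with the seed in capitals.
mmu-miR-199a-5p: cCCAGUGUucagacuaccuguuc
mmu-miR-199a-3p: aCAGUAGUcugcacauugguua
mmu-miR-199b-3p: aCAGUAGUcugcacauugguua
The 5p strand has 23 bases and the 3p strand 22. Both are encoded at 2 loci. The first is Mir199a-2 on chromosome 1, with the 5p strand at chr1:162217844-162217866 and the 3p strand at chr1:162217883-162217904, on the plus strand. This hairpin lies within the long noncoding RNA gene Dnm3os (chr1:162217623-162225550), itself within the span of the dynamin gene Dnm3. The second is Mir199a-1 on chromosome 9, with the 5p strand at chr9:21496537-21496559 and the 3p strand at chr9:21496498-21496519, on the minus strand, within the span of Dnm2. Neither row can therefore be assigned to 1 of these loci. A paralogue, Mir199b, lies at chr2:32318460-32318569 on the plus strand within the span of Dnm1. Among the mature names in the RefSeq table, the 5p seed CCAGUGU belonged to miR-199a-5p alone and the 3p seed CAGUAGU to miR-199a-3p and miR-199b-3p. The 5p arm of Mir199b had no mature entry there, and its sequence in the hairpin below carries the same 5p seed.

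The hairpins of the 3 loci show where they can be told apart, with the sequences of the 5p and 3p arms in capitals.
Mir199a-2: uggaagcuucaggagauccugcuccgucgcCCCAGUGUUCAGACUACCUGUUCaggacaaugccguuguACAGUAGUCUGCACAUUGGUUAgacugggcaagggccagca
Mir199a-1: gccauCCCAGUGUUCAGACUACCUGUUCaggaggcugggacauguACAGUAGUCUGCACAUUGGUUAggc
Mir199b: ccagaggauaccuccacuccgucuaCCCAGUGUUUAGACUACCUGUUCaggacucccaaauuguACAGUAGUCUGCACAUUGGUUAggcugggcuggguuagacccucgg
The 3p arm of Mir199b had 0 mismatches to miR-199a-3p. Its 5p arm differed from miR-199a-5p by C10U, counted from the 5′ end of the mature strand and outside the seed. The panel has no row named for miR-199b, so the row of miR-199a-3p cannot be told apart from miR-199b-3p, whereas the 5p row differs from the Mir199b arm at that base. Whether the 5p probe separates the pair was not tested.

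Both strands were well measured in every tissue and cell sample and were near the floor in exosomes of PBS cultures. The deposited signal is a background-subtracted count multiplied by 1 factor per sample, with a floor of 1, and a value over 29.8, the mean plus 2 SD of the negative controls, is called over the detection limit here. Across the 4 tissue groups and 2 cell groups, miR-199a-5p ran from 558 to 3020 and miR-199a-3p from 1864 to 5913. Before the factor was applied, these correspond to between 587 and 3056 counts above background for the 5p strand and between 1519 and 9269 for the 3p strand. In mean signal, the 5p strand ordered the groups as MAT-HFD, AA-HFD, AA-NCD, MAT-NCD, MAT-Ad-LPS and MAT-Ad-PBS, and every pair of neighbours in that order overlapped. The 3p strand was highest in AA-HFD, MAT-HFD and AA-NCD, which overlapped with their neighbours, and lower without overlap in MAT-Ad-LPS, MAT-NCD and MAT-Ad-PBS, which overlapped with each other. Both LPS and PBS exosome groups lay below all of these for either strand.

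**Figure D1:**
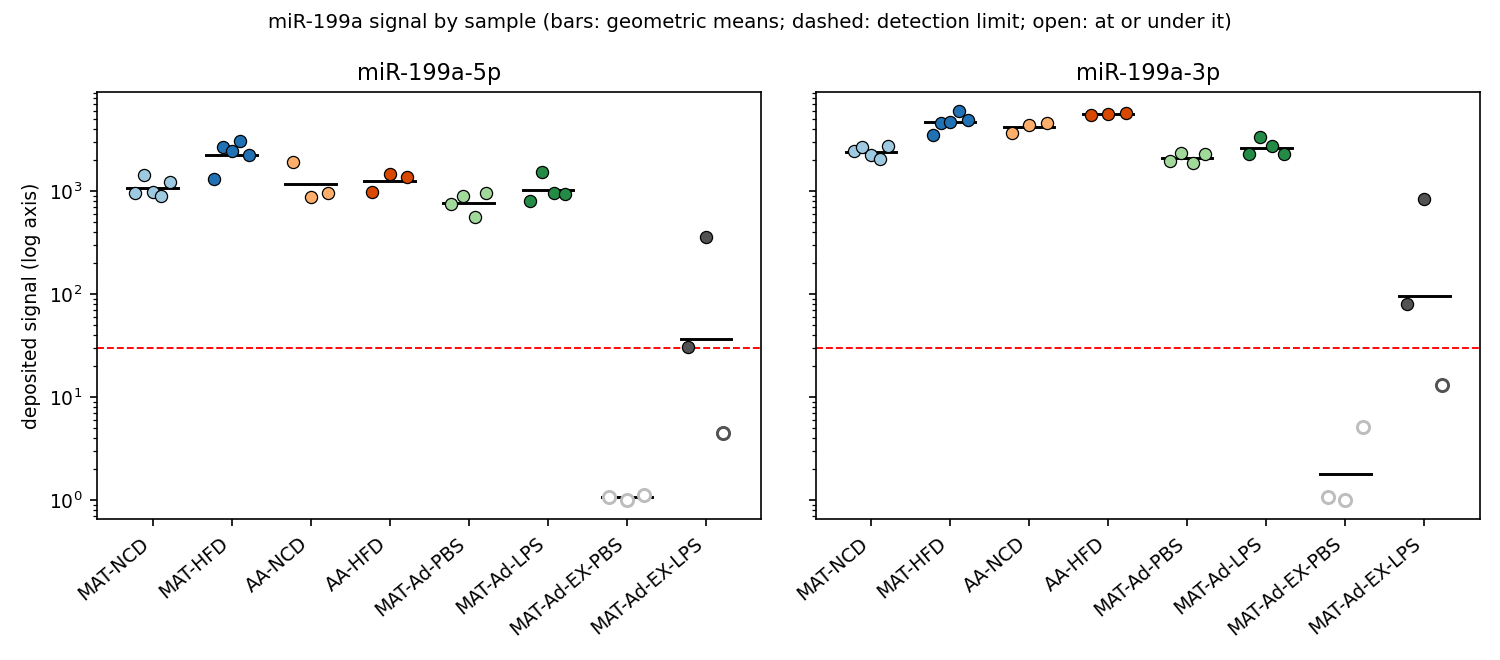
Deposited signal of miR-199a-5p (left) and miR-199a-3p (right) in each of the 30 samples on a log axis. Points are samples, bars are geometric means of the groups, the dashed line is the detection limit of 29.8, and open points are at or under it. All tissue and cell samples lie far over the limit, the 3 PBS exosome samples lie under it, and the LPS exosome samples spread across it.

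The order of the groups was different when each strand was expressed as a share of the summed mouse miRNA signal of its sample. Summed signal ran from 270569 to 496704 in fat, from 174770 to 287152 in aorta, from 70149 to 142968 in cultured cells, and from 1796 to 33349 in exosomes. By share, miR-199a-5p was highest in cultured cells, at 0.962% ± 0.0892 (SD, n = 4) with LPS and 0.879% ± 0.0579 (n = 4) with PBS. It was lowest among tissues in chow fat, at 0.348% ± 0.0365 (n = 5). The share of miR-199a-3p was 2.48% ± 0.257 (n = 4) in LPS cells, 2.39% ± 0.187 (n = 4) in PBS cells, 2.19% ± 0.223 (n = 3) in AA-HFD, 2.1% ± 0.723 (n = 3) in AA-NCD, 1.21% ± 0.209 (n = 5) in MAT-HFD and 0.775% ± 0.0466 (n = 5) in MAT-NCD. Ranked by signal within a sample, the 3p strand was between 7th and 10th of all mouse miRNAs in cultured cells, between 10th and 16th in aorta, and between 21st and 33rd in fat. The 5p strand ranked between 19th and 21st in cells, 23rd and 31st in aorta, and 32nd and 51st in fat. These ranks set probes against each other whose response per molecule was not measured, so they describe signal and not abundance.

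**Figure D2:**
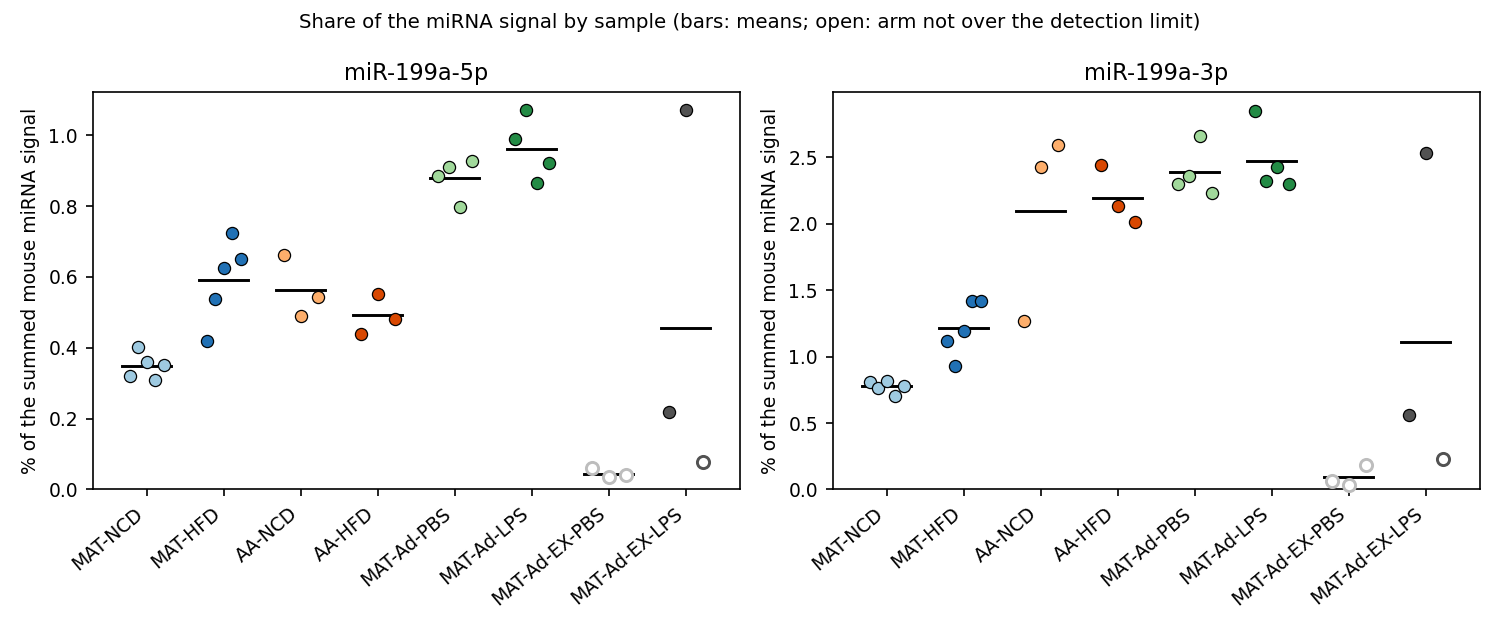
Share of the summed mouse miRNA signal held by miR-199a-5p (left) and miR-199a-3p (right) in each sample, in percent. Points are samples, bars are group means, and open points mark a strand not over the detection limit. The 8 cultured cell samples lie above all fat samples for both strands, and the 5 MAT-HFD samples lie above the 5 MAT-NCD samples.

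Beside these levels stand the signals of miRNAs known from particular cell types, which bear on what the samples held. miR-143 and miR-145, known from smooth muscle, together held 27.5% to 38.2% of the miRNA signal in aorta, 4.67% to 23.9% in fat and 2.02% to 4.11% in cultured cells. The endothelial pair miR-126-3p and miR-126-5p held 5.49% to 11.1% in fat and 1.15% to 1.72% in aorta, and was under the detection limit in all cultured cell samples. A list of 8 miRNAs known from adipocytes held 3.08% to 4.85% in fat and 1.46% to 2.47% in cultured adipocytes, where 3 of them (miR-107, miR-193 and miR-193b) were under the limit in every sample. A list of 18 miRNAs known from mesenchymal cells, without miR-199a, held 22.4% to 31% in fat, 24.9% to 30% in aorta and 45.2% to 59.1% in cultured cells. In bulk samples such as these, a different number of cells of a type and a different amount of a miRNA per cell cannot be told apart.

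The first comparison asked how a high-fat diet altered mesenteric fat. Both strands rose with the diet, miR-199a-5p 2.08-fold and miR-199a-3p 1.93-fold. miR-199a-5p measured 962, 1413, 972, 898 and 1227 in the 5 chow samples and 1301, 2665, 2451, 3020 and 2231 in the 5 high-fat samples. Only high-fat replicate 1, at 1301, lay within the chow range, and the other 4 lay above all chow samples. miR-199a-3p measured 2427, 2694, 2216, 2046 and 2728 on chow and 3479, 4605, 4659, 5913 and 4863 on the high-fat diet. Here the groups did not overlap, and high-fat replicate 1 was again the lowest of its group.

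On the log2(signal + 1) scale the diet difference in fat was 1.06 ± 0.25 (SE, 95% confidence interval 0.5 to 1.62, limma adjusted p = 0.022) for miR-199a-5p. It was 0.95 ± 0.2 (0.51 to 1.38, limma adjusted p = 0.011) for miR-199a-3p. Of the 157 miRNAs tested, 23 were higher on the high-fat diet at an adjusted p under 0.05, or 14.6%, and both strands were among them, ranking 9th and 7th by p, while 1 was lower (0.637%). Scaled to the total miRNA signal, 16 were higher and 9 lower. The median difference over all 157 was 0.31, so most of the panel lay higher in these samples and the strands exceeded that shift. As shares of the miRNA signal, the 5p strand ran from 0.308% to 0.402% on chow and from 0.418% to 0.724% on the high-fat diet, and the 3p strand from 0.702% to 0.819% and from 0.927% to 1.42%, without overlap for either. Scaled to the total miRNA signal, the differences were 0.74 (limma adjusted p = 0.025) and 0.63 (limma adjusted p = 0.025). The call for the 5p strand was lost without single samples: its adjusted p was 0.051, 0.066 and 0.055 without MAT-NCD replicate 1, 3 or 4, and 0.061 and 0.064 without MAT-HFD replicate 2 or 4, with differences from 0.95 to 1.02. The 3p strand kept its call in all 10 such fits, with differences from 0.86 to 1.05. Both strands missed the threshold with all 30 samples in 1 fit (limma adjusted p = 0.39 and 0.44) and with the replicate number as a block (0.054 each), and the 5p strand with no filter on low values (0.056).

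Among other miRNAs known from mesenchymal cells, the share that rose in the same test was near that of all miRNAs tested. Of the 18 listed, all were tested, 3 rose and 0 fell, where 14.6% of all miRNAs tested rose, and the median difference was 0.41 against 0.31 over all miRNAs tested. Those that rose were miR-21, known from fibrosis and growth, at 1.04 ± 0.28 (limma adjusted p = 0.028), miR-27a, a regulator of adipocyte differentiation, at 0.85 ± 0.21 (0.022), and miR-34a, a target of p53, at 1.27 ± 0.34 (0.029). The smooth muscle pair had 0 of 2 called, with a median of 0.05, and the adipocyte list 0 of 8, with a median of -0.21. Among the other lists, miR-126-3p rose at 0.67 ± 0.2 (limma adjusted p = 0.04), and the summed endothelial signal ran from 16007 to 22613 on chow and from 22851 to 34485 on the high-fat diet without overlap, while its share of the miRNA signal overlapped, from 5.49% to 6.43% and from 5.82% to 11.1%. In the leukocyte list miR-223 rose at 0.75 ± 0.19 (limma adjusted p = 0.026), 1 of 4 tested, and the median of the list was -0.38. The summed leukocyte signal overlapped between diets, from 4551 to 25462 and from 5804 to 26550, but its medians were 20073 and 7896. Its share was 6.71%, 7.24%, 5.18%, 7.38% and 1.3% in the chow samples. In the high-fat samples it was 8.53%, 1.17%, 1.6%, 1.89% and 5.81%. High-fat replicate 1, the lowest for both strands of miR-199a, had the highest endothelial share of its group, 11.1%, and the highest leukocyte share, 8.53%. The part of these cell types in the rise of miR-199a was not tested.

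In abdominal aorta the same diets gave no difference in either strand that passed the test. miR-199a-5p measured 1899, 883 and 949 on chow and 974, 1452 and 1360 on the high-fat diet. The chow samples held both the highest and the lowest of these values. miR-199a-3p measured 3643, 4395 and 4535 on chow and 5405, 5584 and 5668 on the high-fat diet, so all 3 high-fat samples lay above all chow samples. The difference was 0.09 ± 0.36 (95% confidence interval -0.78 to 0.96, limma adjusted p = 0.96) for the 5p strand and 0.41 ± 0.18 (-0.03 to 0.85, limma adjusted p = 0.41), or 1.33-fold, for the 3p strand. Both intervals include the median over all 99 miRNAs tested, 0.24. By limma, 0 of the 99 were called (0%), and 11 had an unadjusted p under 0.05. The sign of the 5p difference turned to -0.11 without AA-NCD replicate 2, to -0.06 without AA-NCD replicate 3 and to -0.02 without AA-HFD replicate 2, and was 0.44 at the highest when a sample was left out.

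Whether the diet acted differently in the aorta than in fat was tested directly, in 1 fit over the 4 tissue groups, which uses the samples above again. The diet difference in aorta minus that in fat was -0.97 ± 0.45 for miR-199a-5p (unadjusted p = 0.049, limma adjusted p = 0.53) and -0.53 ± 0.29 for miR-199a-3p (limma adjusted p = 0.71). Neither passed, and 3 of 175 miRNAs did (1.71%). Their 95% confidence intervals ran from -1.93 to -0.01 and from -1.16 to 0.09, and both include differences as large as the rise in fat.

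The comparison of aorta with fat on the same diet asked how the tissues differ. In deposited signal, the strands of miR-199a lay closer between the tissues than the median miRNA, which read far lower in aorta. The size of the strands' differences changed with the scaling, and so did their direction, except for the 3p strand on chow. On chow, miR-199a-3p was 1.73-fold higher in aorta than in fat, with 3 aorta samples at 3643 to 4535 and 5 fat samples at 2046 to 2728 and no overlap. The difference was 0.79 ± 0.21 (limma adjusted p = 0.0029). Of the 175 miRNAs tested, 128 were called (73.1%), 3 of them higher in aorta (1.71%) and 125 lower (71.4%), and the median difference was -2.1. Centred on each sample's median, the split was 53 higher and 54 lower. The first ligation control, a control probe of the panel, read 15316 to 30418 in fat over both diets. In aorta it read 50714 in AA-NCD replicate 1 and 4295 to 8159 in the other samples. The part of the assay in the lower panel signal of aorta was not tested. miR-199a-5p differed by 0.12 ± 0.32 (95% confidence interval -0.56 to 0.79, limma adjusted p = 0.74), and was called higher in aorta at 1.94 when centred on the median, 1.66 after quantile normalization, 1.7 scaled to the top 100 miRNAs and 0.69 scaled to the total. It turned to -0.24 (limma adjusted p = 0.53) without AA-NCD replicate 1. On the high-fat diet it was the 5p strand that passed. miR-199a-5p was lower in aorta, by -0.85 ± 0.32 or 0.554-fold (limma adjusted p = 0.023), and miR-199a-3p differed by 0.26 ± 0.21 (-0.18 to 0.7, limma adjusted p = 0.26), with 2.28, 1.23, 1.9 and 0.87 in those 4 scalings, all called. In that comparison 138 miRNAs were called (78.9%), 5 higher in aorta (2.86%) and 133 lower (76%), with a median of -2.02, and 55 higher and 54 lower when centred on the median.

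The 5p call on the high-fat diet was not firm. With the replicate number as a block the difference was -0.8 (limma adjusted p = 0.082), without AA-HFD replicate 1 it was -0.68 (limma adjusted p = 0.11), and without MAT-HFD replicate 4 it was -0.75 (limma adjusted p = 0.053). It also turned with the scaling, to 1.17 (limma adjusted p = 0.00065) when each sample was centred on its median. The higher 3p signal in chow aorta kept its direction under every scaling run, from 0.44 (limma adjusted p = 0.47, scaled to the positive controls) to 2.62. Of the 18 other mesenchymal miRNAs, 2 were higher and 7 lower in aorta on chow, with a median of -0.41, and 1 was higher and 10 lower on the high-fat diet, with a median of -0.6. The smooth muscle pair had a median of 0.66 on chow and 0.74 on the high-fat diet with 0 of 2 called in each, while the leukocyte list had 3 of 4 lower in each, with medians of -4.74 and -4.59. The part of the cell makeup of the tissues in these differences was not tested, and the tissue cannot be told apart from a letter in the sample descriptions that differs between sample kinds.

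The ratio of the 3p signal to the 5p signal does not depend on any factor per sample. Since the probes of the strands may differ in response, the ratio is not a ratio of molecules, and only its differences between groups can be read. Since the 3p row cannot be told apart from miR-199b-3p, such a difference can hold signal from Mir199b as well. In chow fat it was 2.52, 1.91, 2.28, 2.28 and 2.22, and in high-fat fat 2.67, 1.73, 1.9, 1.96 and 2.18. In aorta it was 1.92, 4.98 and 4.78 on chow and 5.55, 3.85 and 4.17 on the high-fat diet. Of the 6 aorta samples, 5 had a ratio above every fat sample, and AA-NCD replicate 1 lay within the range of fat.

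On the high-fat diet the arm ratio in aorta had a mean of 4.52 ± 0.905 (SD, n = 3), against 2.09 ± 0.366 (n = 5) in fat, a difference that did not pass after adjustment. The groups did not overlap and the log2 ratio differed by 1.11, or 2.16-fold, at an exact two-sided permutation p = 0.036, the smallest this design can give unpaired, and an adjusted p of 0.11 over the 6 ratio tests. Over same-numbered samples aorta was higher in 3 of 3 pairs, with an exact permutation p of 0.25, the smallest that 3 pairs can give. On chow the difference was 0.68 (exact permutation p = 0.18, adjusted p = 0.36), with means of 3.89 ± 1.71 (n = 3) and 2.24 ± 0.221 (n = 5). Without AA-NCD replicate 1 it was 1.13. No diet difference in the ratio passed: in fat the log2 ratio differed by -0.11 (exact permutation p = 0.42, adjusted p = 0.63) and in aorta by 0.32 (exact permutation p = 0.8, adjusted p = 0.8), where 0.1 is the smallest p that 3 samples against 3 allow. None of the 6 ratio tests passed after adjustment.

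**Figure D3:**
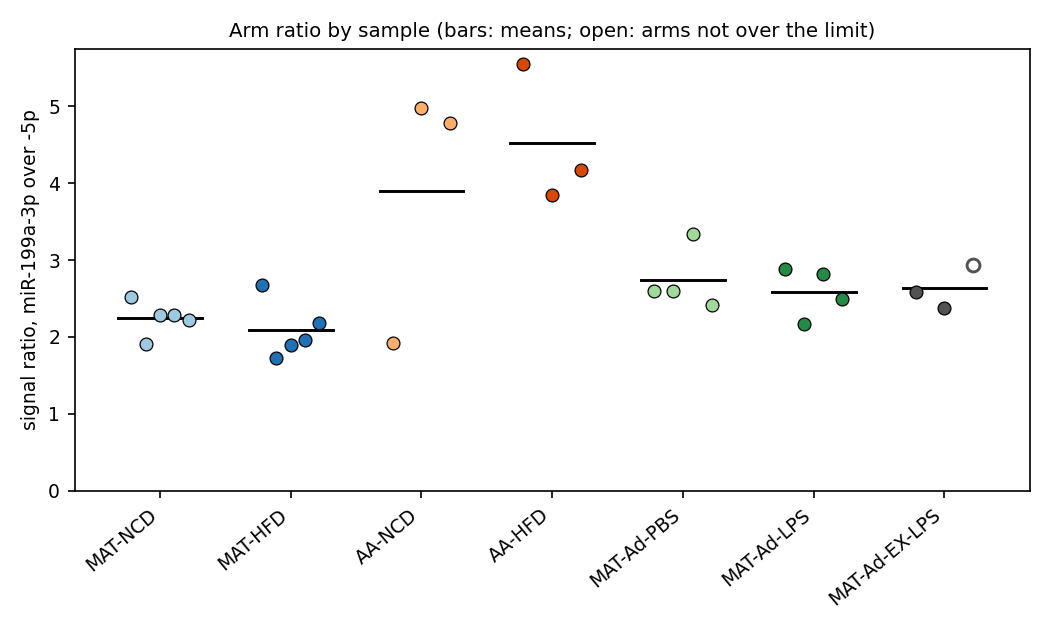
Ratio of the miR-199a-3p signal to the miR-199a-5p signal in each sample, from 0 upward. Points are samples, bars are group means, and the open point has both strands at or under the detection limit; PBS exosomes are left out because neither strand was over it. Fat samples lie between 1.73 and 2.67, 5 of 6 aorta samples between 3.85 and 5.55, and AA-NCD replicate 1 at 1.92.

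AA-NCD replicate 1 stood apart from the other aorta samples in several measures that do not come from miR-199a. Its first ligation control read 50714 against 4295 to 8159 in the other 5 aorta samples, the authors' factor was 2.398, the highest of all 30 samples, and 116 miRNAs were over the limit against 90 to 100. Its miR-199a-3p share was 1.27% against 2.43% and 2.59% in the other chow aortas, and its miR-199a-5p share 0.661% against 0.489% and 0.543%. Its smooth muscle share was 38.2% against 33.3% and 33.2%, its leukocyte share 0.463% against 0.26% and 0.267%, and its adipocyte list share 2.43% against 3.97% and 3.4%. What set this sample apart was not tested.

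The next comparison set chow fat against adipocytes grown from mesenteric pre-adipocytes. In deposited signal the strands were close between tissue and culture, although most other miRNAs were far lower in culture. PBS cells measured 747, 888, 558 and 946 for miR-199a-5p and 1939, 2311, 1864 and 2280 for miR-199a-3p. Both ranges overlapped with chow fat. Fat minus cells was 0.49 ± 0.23 (95% confidence interval -0.02 to 0.99, limma adjusted p = 0.07) for the 5p strand and 0.2 ± 0.17 (-0.19 to 0.6, limma adjusted p = 0.29) for the 3p strand. Of the 151 miRNAs tested, 122 were called (80.8%), 116 of them higher in fat (76.8%) and 6 lower (3.97%), and the median was 2.77. Centred on the median, the split was 71 and 42. The first ligation control read 23224 to 28825 in chow fat and 10810 to 15647 in PBS cells, and its part in the panel difference was not tested.

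The direction of this comparison depended on the scaling. Scaled to the total miRNA signal, both strands were lower in fat than in cells, by -1.34 (limma adjusted p = 1.1e-05) and -1.62 (limma adjusted p = 1.6e-06), and the shares of the miRNA signal did not overlap, with PBS cells at 0.796% to 0.926% and chow fat at 0.308% to 0.402% for the 5p strand and at 2.23% to 2.66% and 0.702% to 0.819% for the 3p strand. The other mesenchymal miRNAs had 13 of 17 tested higher in fat, with a median of 1.85, below that of all miRNAs. The adipocyte list had 8 of 8 higher in fat with a median of 4.69, the leukocyte list 3 of 4 with 9.07, and the endothelial pair 2 of 2 with 10.68. The arm ratio was 2.6, 2.6, 3.34 and 2.41 in PBS cells, a mean of 2.74 ± 0.411 (n = 4), and overlapped with chow fat. The log2 ratio of fat minus cells was -0.28 (exact two-sided permutation p = 0.032, adjusted p = 0.11, smallest possible p = 0.016).

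LPS for 24 h gave no difference in the cultured adipocytes that passed the test. LPS cells measured 791, 1531, 965 and 926 for miR-199a-5p and 2277, 3320, 2717 and 2307 for miR-199a-3p. Both ranges overlapped with those of PBS cells, and LPS replicate 2 was the highest of all 8 samples for either strand. Among same-numbered samples, LPS read higher in 4 of 4 pairs for the 3p strand and in 3 of 4 for the 5p strand. Most of the panel lay higher too, with 84 of the 98 miRNAs tested (85.7%) higher in mean with LPS. The difference was 0.41 ± 0.29 (95% confidence interval -0.24 to 1.05) and 0.33 ± 0.23 (-0.19 to 0.85), each with a limma adjusted p of 0.57, against a median of 0.29 over the 98 miRNAs tested, of which 2 were called (2.04%). With the replicate number as a block, since same-numbered cell samples varied together, 8 miRNAs were called, neither strand among them, at adjusted p-values of 0.4 and 0.49. The arm ratio was 2.88, 2.17, 2.82 and 2.49 with LPS, and the log2 ratio differed by -0.08 (exact two-sided permutation p = 0.57, adjusted p = 0.69). Of the 15 other mesenchymal miRNAs tested, 0 were called, with a median of 0.34.

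**Figure D4:**
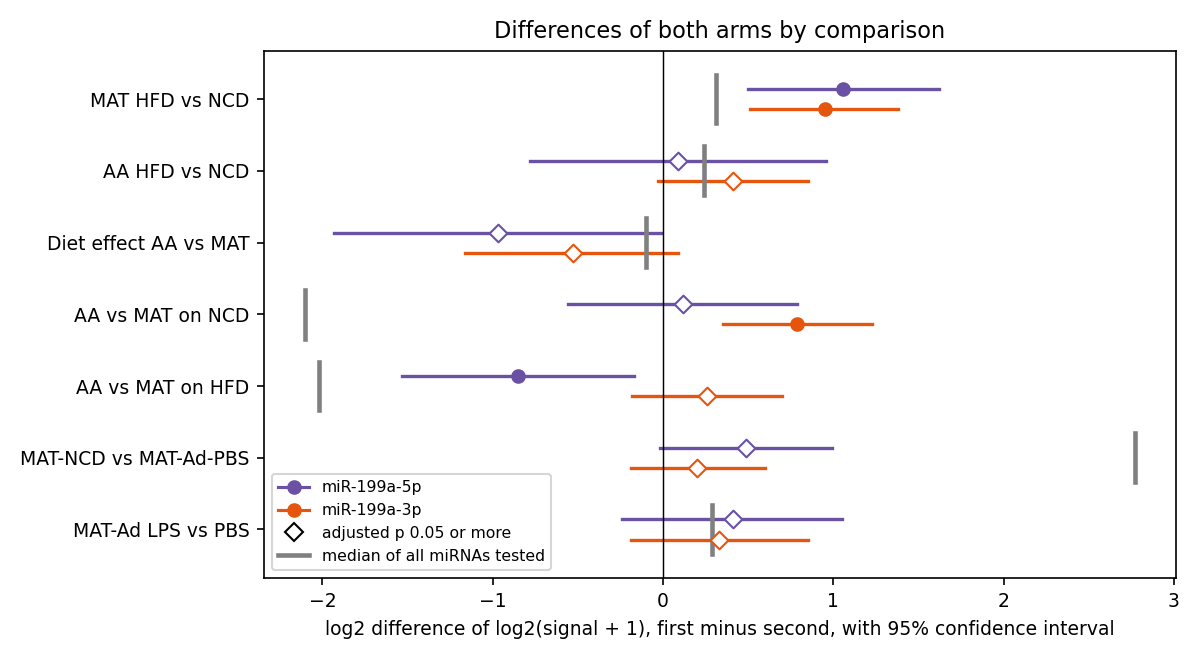
Log2 differences of miR-199a-5p and miR-199a-3p in 7 comparisons, first group minus second, with 95% confidence intervals. Filled circles passed at an adjusted p under 0.05, open diamonds did not, and grey ticks give the median of all miRNAs tested. Both strands passed in fat with diet, and the 3p strand passed in aorta against fat on chow and the 5p strand on the high-fat diet. In aorta against fat on either diet both strands lie far from the grey ticks.

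In exosomes the strands were over the detection limit only in LPS samples, and not in all of them. PBS exosomes gave 1.08, 1 and 1.12 for miR-199a-5p and 1.08, 1 and 5.17 for miR-199a-3p, all under the detection limit. LPS exosomes gave 30.8, 355 and 4.43 for the 5p strand and 79.4, 845 and 13 for the 3p strand. Replicates 1 and 2 were over the limit for both strands and replicate 3 for neither. Replicate 3 and the PBS samples, all under the limit, have no order among themselves, and no fold is given between the exosome groups. The first ligation control read 126, 11843 and 10511 in PBS exosomes, where 7, 14 and 14 miRNAs were over the limit. In LPS exosomes it read 16108, 2832 and 23141, so replicate 2, the highest for both strands, had the lowest control of its group. The part of the assay in the exosome values was not tested.

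Exosome samples differed widely in how much miRNA signal they held. In LPS exosomes both strands of miR-199a had the order of the sample totals, but their shares of the totals also differed. Summed miRNA signal was 1796 to 2861 in PBS exosomes and 5753 to 33349 in LPS exosomes, where the sample with the highest total, replicate 2, also had the highest signal of both strands and the one with the lowest total, replicate 3, the lowest. The LPS exosome shares were 0.218%, 1.07% and 0.077% for the 5p strand and 0.563%, 2.53% and 0.227% for the 3p strand. Replicate 2 lay at or within the share range of LPS cells (0.864% to 1.07% and 2.3% to 2.85%), and the other replicates lay below it. Neither strand entered the test of LPS against PBS exosomes, being over the limit in 2 of 6 samples, and 8 of 26 miRNAs tested were called (30.8%). With no filter, the differences of 4.26 ± 1.55 (unadjusted p = 0.04) and 5.06 ± 1.59 (unadjusted p = 0.024) each had a limma adjusted p of 0.4, and 0 of 566 miRNAs were called, with 40 at an unadjusted p under 0.05. The arm ratio in LPS exosomes was 2.58, 2.38 and 2.94, the last with both strands under the limit, within or next to the range of LPS cells at 2.17 to 2.88.

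Against cultured cells of the same treatment, exosomes gave a far lower deposited signal of either strand. No label ties an exosome sample to a cell sample. In geometric mean, PBS cells exceeded PBS exosomes at least 25.8-fold for the 5p strand and at least 70.1-fold for the 3p strand. Here the limit stood in place of the exosome values. The fitted differences had limma adjusted p = 2.6e-06 and 9.9e-07. Both strands entered this fit, which also gave the LPS results below, through the cell samples, where they are high. Every PBS exosome value was under the limit, so these p-values rest on the floor and add no support to the bounds. Of 114 miRNAs tested, 90 were lower in PBS exosomes (78.9%) and 0 higher, against 23 lower and 39 higher when centred on the median. In geometric mean, LPS cells exceeded LPS exosomes at least 14.8-fold and at least 20.8-fold, with the limit in place of replicate 3. Of the LPS exosome samples, replicate 2 lay closer, at 355 and 845 against 791 to 1531 and 2277 to 3320 in LPS cells. As fitted on the deposited values, with replicate 3 under the limit, exosomes minus cells was -4.69 ± 0.98 for the 5p strand and -4.74 ± 0.98 for the 3p strand, each with a limma adjusted p of 0.00077, where 83 of 114 were called (72.8%), 80 of them lower (70.2%) and 3 higher, and the median was -3.44. Centred on the median, 34 were lower and 23 higher. The strands missed the threshold at -1.74 (limma adjusted p = 0.067) and -1.71 (0.081) when scaled to the top 100 miRNAs, and the 3p strand at -1.96 (0.08) after quantile normalization. The fitted differences lay between -6.28 and -3.26 and between -6.29 and -3.33 when a sample was left out. Setting the exosome effect of LPS against the cell effect gave 3.85 ± 1.38 (limma adjusted p = 0.08) for the 5p strand and 4.73 ± 1.39 (limma adjusted p = 0.039) for the 3p strand, where 16 of 114 miRNAs were higher (14%) and 1 lower (0.877%), against 5 and 30 when centred on the median and 10 and 20 when scaled to the total. Both strands entered this fit through the cell samples, where they are high. The difference rests on PBS exosome values at the floor: with the limit in place of lower values, the 3p strand gave 1.75 (limma adjusted p = 0.61). Exosome RNA was extracted with another kit than cell RNA, so fraction and kit cannot be told apart.

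miR-214 shares the Dnm3os transcript with Mir199a-2, and its row, which names no arm, was under the detection limit in most samples. Its strands in RefSeq are shown because their seeds, in capitals, differ from those of miR-199a.
mmu-miR-214-5p: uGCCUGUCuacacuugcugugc
mmu-miR-214-3p: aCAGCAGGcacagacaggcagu
The row was over 29.8 in 4 of 30 samples, namely MAT-HFD replicates 3, 4 and 5 at 31.43, 31 and 32.33, and AA-NCD replicate 1 at 38.67. Chow fat samples ranged from 1.27 to 17.2, all under the limit, and MAT-HFD replicates 1 and 2 read 1 and 20.63. Cultured cells ranged from 1 to 10.5. It was tested only in the fit over the 4 tissue groups, where aorta minus fat was 0.51 on chow (limma adjusted p = 0.68) and -1.25 on the high-fat diet (limma adjusted p = 0.29). By diet in fat it did not pass the filter on low values, so whether it moved with miR-199a there was not tested.

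The miRNAs whose pattern was most like miR-199a were listed over the 24 tissue and cell samples, among the 125 miRNAs over the limit in at least 12 of them. The measure is Pearson's r of log2(signal + 1), as a description: the samples fall into 6 groups and share their factor across all miRNAs, so r also reads differences between groups and in scaling. For miR-199a-5p these were miR-24 (r = 0.86), miR-152 (0.84), miR-574-3p (0.81), let-7e (0.81) and miR-99b (0.79), against a median of 0.56 over all candidates. For miR-199a-3p they were miR-27a (0.83), let-7d (0.77), miR-23a (0.77), miR-140 (0.77) and miR-652 (0.74), against a median of 0.22. The 2 strands correlated with each other at 0.69, ranking 14th from the side of the 5p strand and 7th from that of the 3p strand, so neither strand's nearest miRNA was its own partner.

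The levels behind these likenesses differed between the strands in the aorta. miR-24 measured 355 ± 58.4 (SD, n = 5) in chow fat, 731 ± 263 (n = 5) in high-fat fat and 283 ± 115 (n = 3) in chow aorta, with high-fat fat at the top as for the 5p strand. miR-27a, which is clustered with miR-23a and miR-24, measured 2973 ± 435 (n = 5), 5402 ± 1039 (n = 5), 5407 ± 1260 (n = 3) and, in high-fat aorta, 7505 ± 522 (n = 3), with high-fat aorta at the top as for the 3p strand. By share of the miRNA signal the nearest were miR-125b-5p (r = 0.86), miR-125b-3p (0.85), miR-132 (0.82), let-7i (0.81) and miR-28 (0.8) for the 5p strand. For the 3p strand they were miR-2141 (0.77), miR-199a-5p (0.74), miR-22 (0.74), miR-125b-5p (0.74) and miR-125b-3p (0.73). On that scale the medians over all candidates were -0.14 and -0.31, and the names changed for both strands, so the list of nearest miRNAs depends on the scale.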

How the data were processed

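The authors deposited 1 table of signal values, and its low values show background-subtracted counts with a floor of 1, multiplied by 1 factor per sample (0.6025 to 2.398), with control probes left unscaled. Which tool was used, how background was set and what the factor rests on is not given in the sources used here. RNA was extracted with one kit from tissue and cells and with another from exosomes, per the labels' protocols. Samples were grouped by title. The detection limit is the mean of 240 negative control values plus 2 SD. A miRNA was tested when over it in at least as many samples as the smallest group held. Tests used limma 3.58.1 in R 4.3.3 on log2(signal + 1), with Benjamini-Hochberg adjustment over those tested and a threshold of 0.05 on the adjusted p, and were checked on simulated data. Folds understate changes of low miRNAs. Arm ratios, log2((3p + 1)/(5p + 1)), were compared by exact two-sided permutation (scipy 1.17.1). The sources tie no replicate number to an animal, culture or day. Same-numbered samples deviated together in PBS and LPS cells (correlations 0.67, 0.5, 0.61 and 0.88 over 98 miRNAs) and in both tissues on the high-fat diet (0.33, 0.26 and 0.21 over 165), and not throughout in other comparisons. Named miRNAs were both strands, miR-214, the 5 most correlated miRNAs per strand and scale, and the called members of a list; the last were chosen after their values were seen. The members and lists were chosen with earlier results of these data known. Alternatives were another pseudocount, no filter, a doubled limit, values under the limit set to it, 5 other scalings and the authors' factor undone, trended and robust eBayes, all 30 samples in 1 fit, the replicate block, and leaving out each replicate. Scaling to the total miRNA signal was chosen after seeing the data.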

Additional observations from a re-analysis of the deposited data

Results flagged for a closer look

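The LPS effect on miR-199a-3p differed between exosomes and cells by 4.73 ± 1.39 on the log2 scale (limma adjusted p = 0.039), and it stands here because the test of the difference between these effects was the one that passed. It is a fit on values at the floor: the strand was over the detection limit in 0 of 3 PBS and 2 of 3 LPS exosome samples, entered the fit through the cell samples, and gave 1.75 (adjusted p = 0.61) with the limit in place of lower values. The LPS exosome samples read 79.4, 845 and 13 against 1.08, 1 and 5.17 in PBS exosomes, measurably higher in 2 of 3 samples, while the cell groups overlapped. Over its alternatives the adjusted p ran from 0.00057 to 0.61. It stayed under 0.05 in 3 of 14 fits that left out a sample, those without MAT-Ad-EX-PBS replicate 3, MAT-Ad-EX-LPS replicate 2 or MAT-Ad-EX-LPS replicate 3, and was at most 0.078 in the rest. The part of the sample totals, 1796 to 2861 against 5753 to 33349, in this difference was not tested. Nor was that of the first ligation control, 126 to 11843 in PBS exosomes and 2832 to 23141 in LPS exosomes.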

How the results depend on the processing

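In fat, the diet differences kept their direction in all alternatives, from 0.74 to 1.3 (5p) and from 0.63 to 1.19 (3p), and from 0.95 to 1.26 and 0.86 to 1.05 with a sample left out. The 5p strand, at 1.06, missed the threshold with no filter (limma adjusted p = 0.056), with all 30 samples in 1 fit (0.39) and with the replicate block (0.054), and the 3p strand, at 0.95, with all 30 samples (0.44) and with the block (0.054). The numbers do not pair the fat samples by diet (correlations -0.63 to 0.27), and the block left 8 calls against 24. The cause was not tested for any change given here. In aorta the 5p diet difference was -0.11 when centred on the median, -0.07 after quantile normalization, -0.12 scaled to the top 100 miRNAs and -0.19 scaled to the total signal, and -0.11 to 0.44 with a sample left out. For aorta against chow fat the 5p difference was 1.94 centred, 1.66 quantile normalized, 1.7 on the top 100, 0.69 on the total, -0.24 on the positive controls and -0.01 with the factor undone, and -0.24 to 0.32 with a sample left out; the 3p difference lost its call on the positive controls (0.44), with the factor undone (0.67) and with all 30 samples (0.79). On the high-fat diet the 5p difference was 1.17 centred, 0.53 quantile normalized, 0.79 on the top 100, -0.25 on the total, -0.85 with all 30 samples and -0.8 with the block, and -1.05 to -0.68 with a sample left out, and the 3p difference 2.28, 1.23, 1.9 and 0.87 in the first 4 of these and -0.06 on the positive controls. For chow fat against PBS cells, centring, quantile normalization, the top 100 and the total gave -1.59, -2.06, -2.18 and -1.34 (5p) and -1.87, -2.36, -2.47 and -1.62 (3p), and the 5p strand passed on the positive controls (0.58) and with trended eBayes (0.49). Each of these 4 scalings equalises a summary of the panel between samples by construction. LPS exosomes against LPS cells missed the threshold at -1.74 (5p) and -1.71 (3p) on the top 100 and at -1.96 (3p) after quantile normalization. The LPS effect in exosomes against cells passed for the 5p strand at 4.32 (quantile) and 3.85 (all 30 samples), and at 2.26 to 5.28 with a sample left out it passed once, without MAT-Ad-EX-LPS replicate 3. For the 3p strand it failed at 2.54 (pseudocount 16), 4.73 (no filter, and with the block), 2.22 (centred), 4 (positive controls), 4.22 (factor undone) and 1.75 (values under the limit set to it), and ran from 3.18 to 6.14 with a sample left out. The arm ratio changed sign only with a sample left out, from -0.13 to 0.56 for aorta by diet and from -0.13 to 0.02 for cells by LPS. The block changed no other call.

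Counts of calls moved by over 1.5 times as follows. Diet in fat had 24 calls, 13 with no filter, 54 with the factor undone, 10 with all 30 samples, and 8 to 48 with a sample left out (9, 8 and 8 without MAT-NCD replicate 1, 3 or 4, 9, 10 and 14 without MAT-HFD replicate 2, 4 or 5, and 48 without MAT-HFD replicate 1). The diet effect between tissues had 3, 5 with no filter and 3 to 7 with a sample left out (7 without AA-NCD replicate 1, 5 without AA-NCD replicate 2). LPS in cells had 2, 1 with the limit doubled, 5 when centred or on the positive controls, 8 with the block, and 2 to 4 with a sample left out (4 without MAT-Ad-LPS replicate 1). LPS in exosomes had 8, 0 with no filter, centring or the block, 1 after quantile normalization or on the total, 3 on the top 100, 5 with the limit doubled, 17 with all 30 samples, 23 without MAT-Ad-EX-LPS replicate 3 and 0 without any other sample. Exosomes against PBS cells had 90, and 59 on the total, and against LPS cells 83, with 54 after quantile normalization and 55 on the top 100. The LPS effect between fractions had 17, 5 with no filter, 6 with values set to the limit, 10 with pseudocount 16 or the factor undone, 11 on the positive controls, 30 on the total, 32 with all 30 samples, 35 centred, and 9 to 43 with a sample left out (9 to 10 without cell samples other than PBS replicates 1 and 3 and LPS replicate 1, and 43 without MAT-Ad-EX-LPS replicate 3). Centring also moved the split in aorta against chow fat from 3 higher and 125 lower to 53 and 54, on the high-fat diet from 5 and 133 to 55 and 54, in the LPS effect between fractions from 16 and 1 to 5 and 30 (10 and 20 on the total), and in chow fat against PBS cells from 116 and 6 to 71 and 42. Neither strand entered the main test of LPS against PBS exosomes, so it has no alternatives here beyond the unfiltered fit.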
